A study of Mus musculus with 6 samples.

Results

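The noncoding RNA genes Malat1, Neat1, Rn7sk, Gm26917, Rmrp, Rpph1, Snhg1 and Gas5 were followed in bone marrow-derived macrophages (BMMs) with and without Aif1, the gene of allograft inflammatory factor 1. They are 8 of the 47729 genes counted, and they were picked by name for their share of the reads and for their difference between genotypes in these same libraries. Both measures are therefore given as descriptions, with no test. RNA-seq of total RNA depleted of ribosomal RNA was done on 3 WT and 3 Aif1-/- libraries. All cells came from male C57BL/6J mice 8 weeks old, were differentiated from marrow, immortalized with SV40 large T antigen and kept in α-MEM with CSF-1, so both genotypes carry the viral antigen and both grew with CSF-1, at passages 3 to 5. The replicates are described as separate animals, 3 for each genotype, and p-values refer to the spread between their libraries. Whether each animal's cells were immortalized on their own was not stated. In such bulk samples fewer cells of a type and less RNA per cell cannot be told apart.

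Several of these RNAs act within the nucleus. Malat1 collects in nuclear speckles, where splicing factors are stored, and Neat1 is the scaffold of paraspeckles. RNA polymerase III makes Rn7sk, the 7SK RNA that holds the elongation kinase P-TEFb inactive, and also Rmrp and Rpph1, the catalytic RNAs of RNase MRP, which takes part in rRNA maturation, and of RNase P, which trims the 5′ ends of tRNAs and also cuts the 3′ ends of Malat1 and long Neat1. Snhg1 and Gas5 carry box C/D snoRNAs in their introns, and their spliced transcripts are removed by nonsense-mediated decay. Gm26917 is annotated as a long noncoding RNA, but it lies directly beside a row annotated as rRNA. Whether its reads come from pre-rRNA left after depletion was not tested.

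Sequences of related members were set side by side, and all were taken from GENCODE transcripts of GRCm38. Malat1 and Neat1 have no poly(A) tail at these ends and keep a genome-encoded A-rich tract that pairs with U-rich stretches upstream. The Malat1 piece lies at chr19:5795982-5796089 and the Neat1 piece at chr19:5824708-5824808, both on the minus strand and both ending with the tract, and capitals mark the 3 runs of at least 10 bases that the pieces have in common.
Malat1 end: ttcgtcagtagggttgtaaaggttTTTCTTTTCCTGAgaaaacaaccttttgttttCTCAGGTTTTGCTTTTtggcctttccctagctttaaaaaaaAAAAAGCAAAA
Neat1 end: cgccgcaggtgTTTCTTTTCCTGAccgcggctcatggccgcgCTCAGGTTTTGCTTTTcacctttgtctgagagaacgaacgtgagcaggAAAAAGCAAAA
The runs were 13, 16 and 11 bases long. Among the 6943 long noncoding genes with a transcript, the 13-base run was found in 3, the 16-base run in 2 and the 11-base run in 26, and only the 2 genes Malat1 and Neat1 had more than a single run. The annotated Malat1 goes on for 292 bases after the tract, and its next 58 bases at chr19:5795924-5795981 are the stretch known to be released as a small tRNA-like RNA. The annotated Neat1 stops at the tract.
Malat1 downstream: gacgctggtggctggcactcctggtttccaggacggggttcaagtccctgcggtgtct

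Rmrp (chr4:43492788-43493058, minus strand, 271 bases) and Rpph1 (chr14:50807449-50807767, minus strand, 319 bases) belong to related ribonucleoproteins that share most of their proteins. Their longest common runs were 2 runs of 9 bases, in capitals here, at positions 183 and 221 of Rmrp and 17 and 246 of Rpph1. How often unrelated sequences of this length and GC content share such runs was not computed, so the runs do not show relatedness. Of Rpph1 the first 300 bases at chr14:50807468-50807767 are shown.
Rmrp: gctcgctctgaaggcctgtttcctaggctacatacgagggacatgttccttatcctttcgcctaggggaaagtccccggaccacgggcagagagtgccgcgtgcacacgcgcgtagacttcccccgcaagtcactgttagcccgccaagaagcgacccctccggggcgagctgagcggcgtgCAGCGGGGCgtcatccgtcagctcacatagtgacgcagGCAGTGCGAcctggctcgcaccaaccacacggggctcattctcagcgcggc
Rpph1: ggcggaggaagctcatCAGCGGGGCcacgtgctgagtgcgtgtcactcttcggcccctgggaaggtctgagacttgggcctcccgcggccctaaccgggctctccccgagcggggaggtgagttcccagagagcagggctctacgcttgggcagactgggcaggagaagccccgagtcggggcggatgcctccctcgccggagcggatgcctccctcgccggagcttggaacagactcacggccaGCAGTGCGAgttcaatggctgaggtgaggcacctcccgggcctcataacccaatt
Rn7sk (chr9:78175303-78175633, minus strand, 331 bases) begins with the stem that HEXIM proteins bind through GAUC repeats. Its first 100 bases at chr9:78175534-78175633 hold GATC, in capitals, at positions 13, 42 and 64, and these are the 3 copies of the whole RNA. Of 139316 annotated transcripts of that length or more, 0.323% have at least 3 copies in their first 100 bases.
Rn7sk: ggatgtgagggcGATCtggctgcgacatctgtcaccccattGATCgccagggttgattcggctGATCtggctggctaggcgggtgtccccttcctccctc
Gm26917 (chr17:39843013-39846341, plus strand, 3329 bases) ends 12 bases before the place where RefSeq puts the 18S rRNA pseudogene Rn18s-rs5 (chr17:39846354-39848202). Its GC content was 69.1%, above that of 99.7% of the genes counted, and its last 100 bases (chr17:39846242-39846341) are shown for that composition.
Gm26917 end: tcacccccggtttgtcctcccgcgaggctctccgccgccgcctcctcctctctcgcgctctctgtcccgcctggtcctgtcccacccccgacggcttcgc
The other genes are Malat1 (chr19:5795690-5802672) and Neat1 (chr19:5824708-5845478), both on the minus strand, Snhg1 (chr19:8723475-8726443, plus strand) and Gas5 (chr1:161034422-161038539, plus strand).

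The 8 RNAs together took 5.26%, 5.34% and 7.31% of the reads assigned to genes in WT libraries 1, 2 and 3, and 5.17%, 5.54% and 5.63% in Aif1-/- libraries 1, 2 and 3. The means were 5.97% ± 1.16 (SD, n = 3) and 5.45% ± 0.243 (SD, n = 3), and WT library 3 stood above the other 5. Gm26917 was the gene with the most reads in every library, with shares of 2.06% to 3.89%. Rn7sk ranked 2 or 3, at 1.20% to 1.73%, and Malat1 ranked between 2 and 6, at 0.506% to 1.27%. Rpph1 held 0.485% to 0.745%, Rmrp 0.156% to 0.268% and Neat1 0.0451% to 0.10%. Not all members were abundant. Gas5 ranked between 6189 and 8083 among the genes and Snhg1 between 8834 and 10485, with 315 to 879 and 135 to 393 reads in a library. Wilson 95% intervals reached at most 2.04% of the value to either side for the 6 abundant RNAs, 11.1% for Gas5 and 16.9% for Snhg1. These intervals cover counting error only.

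**Figure D1:**
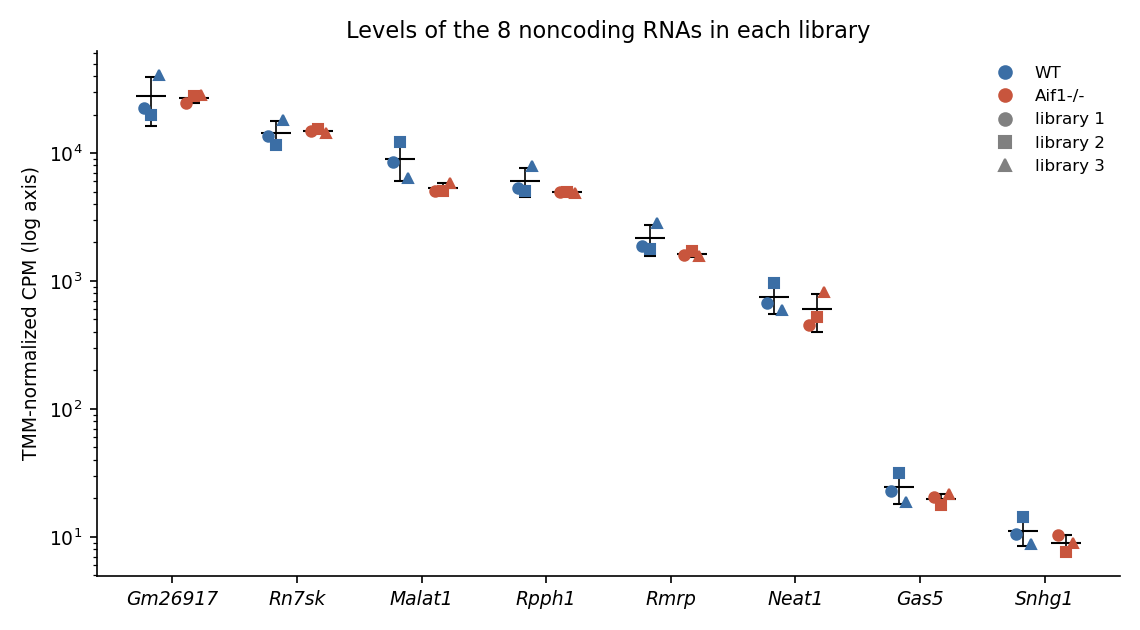
TMM-normalized CPM of each RNA on a log axis, in order of their level; each point is a library (shape, replicate number; color, genotype), and bars give the mean and SD of 3 libraries. Gm26917 lies between 19826 and 41018, and Snhg1 between 7.65 and 14.2.

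Levels were next compared per kilobase of annotated exon, as CPM (read counts scaled to a common library size by TMM) per kb. On this scale the short polymerase III transcripts led the table. Rn7sk had the highest level of all 47310 genes with a length, 44307 ± 6737 (SD, n = 6), and Rpph1 was the second at 17212 ± 3663. Gm26917 at 8227 ± 2237 and Rmrp at 6972 ± 1746 followed. Their ranges overlapped in WT libraries, at 5956 to 12322 and 6546 to 10432, whereas in Aif1-/- libraries Gm26917 at 7367 to 8606 lay above Rmrp at 5733 to 6317. The lengths include bases that lie in exons of other genes, 45.8% of Rmrp and 73.0% of Rpph1. Their part in this order was not tested. For scale, Actb, the β-actin mRNA, reached 2390 CPM per kb. Malat1 came to 1029 ± 395 and Neat1 to 32.3 ± 9.27, with its 20771 annotated bases. How evenly the reads of Neat1 cover these bases was not tested, so a shorter form would have a higher level per kb. Gas5 (5.91 ± 1.33) and Snhg1 (3.40 ± 0.768) were lowest, and their ranges, 4.75 to 8.44 and 2.58 to 4.78, touched. With the longest transcript in place of all exons, Gas5 came to 8.69 CPM per kb.

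Malat1 had the widest difference between genotypes with all 6 libraries. Its CPM was 8470, 12204 and 6402 in WT libraries 1 to 3, and 5093, 5079 and 5865 in Aif1-/- libraries 1 to 3. No Aif1-/- library reached the lowest WT library, and WT library 2 was the highest. The means were 9026 ± 2941 and 5345 ± 450.0 (SD, n = 3 each), and the fold change on the log2 scale was −0.76 ± 0.19 (SE) for Aif1-/- against WT. Without WT library 3 it came to −0.95. Without WT library 2 it came to −0.47, and Rmrp at −0.53 was then the wider.

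Neat1, the gene next to Malat1 on chromosome 19, was less even. It stood at 671.5, 962.7 and 593.7 CPM in WT and at 449.4, 523.4 and 823.7 CPM in Aif1-/- libraries. The genotypes overlapped, since Aif1-/- library 3 was above 2 of the WT libraries. The log2 fold change was −0.31 ± 0.22. It ranged from −0.61 without Aif1-/- library 3, when the genotypes no longer overlapped, to −0.08 without WT library 2. How many of all genes did not overlap in such a refit was not computed. Malat1 had 12.6, 12.7 and 10.8 reads for each Neat1 read in WT and 11.3, 9.70 and 7.12 in Aif1-/- libraries, and these ratios overlapped as well.

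Rn7sk gave 13528, 11527 and 18258 CPM in WT and 14840, 15491 and 14348 CPM in Aif1-/- libraries. The 3 Aif1-/- values fell inside the WT range. The means were 14438 ± 3456 and 14893 ± 573, with a log2 fold change of 0.04 ± 0.14. Gm26917 had 22460, 19826 and 41018 CPM in WT and 24523, 27838 and 28650 CPM in Aif1-/- libraries, again inside the WT range, with means of 27768 ± 11550 and 27004 ± 2186 and a log2 fold change of −0.04 ± 0.22. For both RNAs WT library 3 was the highest of all 6. Without it Rn7sk came to 0.26 and Gm26917 to 0.36, and every Aif1-/- library then lay above both WT libraries. The share of all genes that did so in that refit was not computed. Without WT library 2 the values turned to −0.09 and −0.23, and Gm26917 also came to −0.17 without WT library 1, so neither RNA kept a direction.

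The catalytic RNAs had similar profiles. Rmrp stood at 1868, 1774 and 2827 CPM in WT and at 1602, 1712 and 1554 CPM in Aif1-/- libraries, with a log2 fold change of −0.41 ± 0.15. Rpph1 stood at 5324, 5021 and 7852 CPM in WT and at 4950, 4960 and 4838 CPM in Aif1-/- libraries, with −0.30 ± 0.14. In both, every Aif1-/- library was below every WT library, but the gap to the lowest WT library was small and WT library 3 was far above the rest. Without WT library 3 the log2 fold changes came to −0.16 and −0.07. Rpph1 varied least of the 8 among Aif1-/- libraries, with a coefficient of variation of 1.38% against 25.6% in WT.

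Snhg1 gave 10.5, 14.2 and 8.81 CPM in WT and 10.4, 7.65 and 8.97 CPM in Aif1-/- libraries, and Gas5 gave 22.9, 31.75 and 18.8 CPM in WT and 20.45, 17.9 and 21.5 CPM in Aif1-/- libraries. The genotypes overlapped for both host genes, and WT library 2 was the highest in both. The log2 fold changes of −0.31 ± 0.19 and −0.30 ± 0.17 came to −0.09 and −0.06 without WT library 2. Without WT library 3 they came to −0.44 and −0.45, and the genotypes then did not overlap in either. For that refit too, the share over all genes was not computed. All 8 RNAs passed the filter on low counts. Malat1, Rmrp and Rpph1, 3 of the 8, had every Aif1-/- library below every WT library, and so did 19.1% of the 17406 genes tested.

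The members fell into 2 patterns over the 6 libraries. Malat1, Neat1, Snhg1 and Gas5 were each highest in WT library 2, by 0.84, 0.57, 0.52 and 0.54 above their own mean on the log2 scale. Gm26917, Rmrp, Rpph1 and Rn7sk were each highest in WT library 3, by 0.62, 0.61, 0.54 and 0.33. Reads that matched no gene made up 40.4% of the counted reads in WT library 2, 25.5% in WT library 3 and 32.4% to 35.7% in the other 4 libraries. Reads that were ambiguous between genes made up 4.55%, 7.15% and 5.41% to 5.79% in the same order. The part of these shares in the levels of the RNAs was not tested. Among WT libraries the coefficient of variation was 23.9% to 41.6%, and among Aif1-/- libraries it was 1.38% to 15.1% for all members but Neat1 (33.1%).

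**Figure D2:**
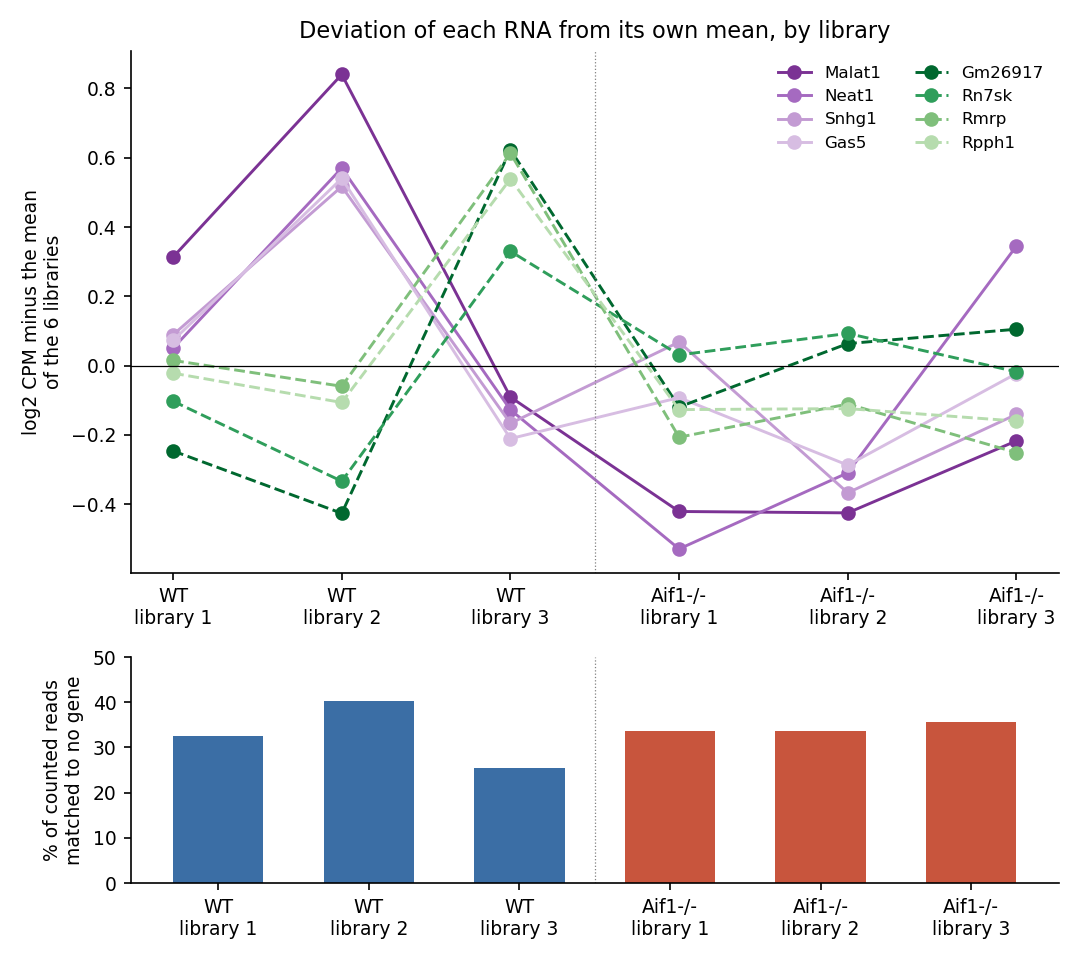
Top, log2 CPM of each RNA minus its mean over the 6 libraries (solid lines, Malat1, Neat1, Snhg1 and Gas5; dashed lines, Gm26917, Rn7sk, Rmrp and Rpph1); bottom, the percent of counted reads matched to no gene in each library, colored by genotype. The solid lines peak in WT library 2, where 40.4% of reads matched no gene, and the dashed lines in WT library 3, where 25.5% did.

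The ratio of 2 members within a library was then compared for all 28 pairs, and in 6 it did not overlap between the genotypes. Rmrp was in 3 of the 6. These pairs share members and are not independent. The share of such pairs among other genes was not computed, so the count says nothing particular about the members. Rn7sk had 7.24, 6.50 and 6.46 reads for each Rmrp read in WT and 9.26, 9.05 and 9.24 in Aif1-/- libraries, with means of 6.73 ± 0.441 and 9.18 ± 0.117. Gm26917 had 12.02, 11.2 and 14.5 reads for each Rmrp read in WT and 15.3, 16.3 and 18.4 in Aif1-/- libraries. Both ratios were higher in every Aif1-/- library. Rn7sk had 2.54, 2.30 and 2.325 reads for each Rpph1 read in WT and 3.00, 3.12 and 2.97 in Aif1-/- libraries, with means of 2.39 ± 0.134 and 3.03 ± 0.0832. The spread of this ratio was narrower than that of either RNA in WT. Rpph1 had 2.85, 2.83 and 2.78 reads for each Rmrp read in WT and 3.09, 2.90 and 3.11 in Aif1-/- libraries. The other 2 pairs were of Malat1 with the host genes and were lower in every Aif1-/- library. Malat1 had 369, 384 and 340 reads for each Gas5 read in WT and 249.0, 284 and 273 in Aif1-/- libraries, and 804.5, 860 and 727 for each Snhg1 read in WT and 491, 664 and 654 in Aif1-/- libraries. The ratio of Gm26917 to Rn7sk overlapped, with 1.66, 1.72 and 2.25 in WT and 1.65, 1.80 and 2.0 in Aif1-/- libraries, and so did that of Gas5 to Snhg1, which stayed between 1.97 and 2.39. As these ratios come from the values that chose the genes, they are descriptions too.

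**Figure D3:**
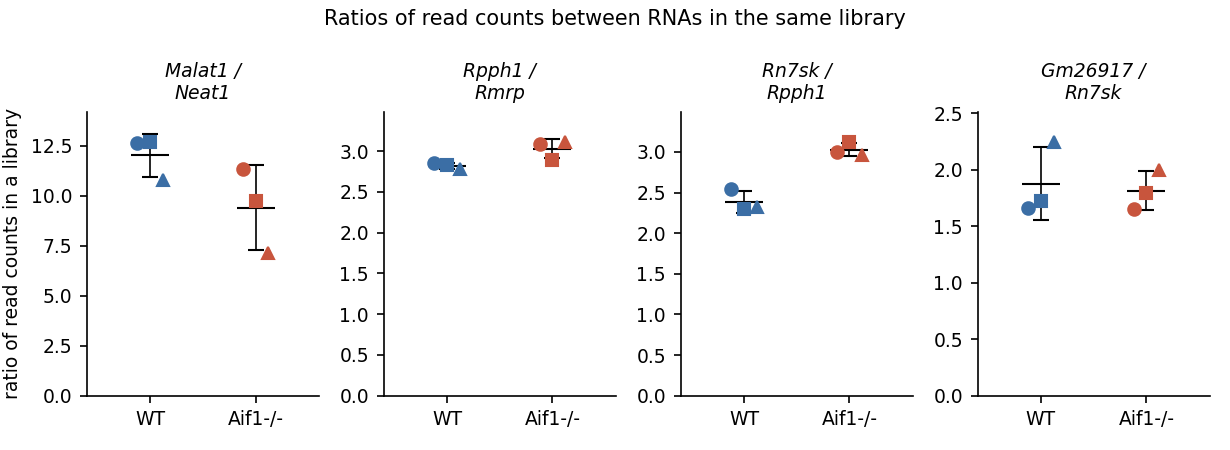
Ratios of read counts between pairs of the RNAs in the same library; points are libraries (shape, replicate number; color, genotype), bars the mean and SD of 3 libraries, and each axis starts at 0. Rn7sk over Rpph1 lies at 2.30 to 2.54 in WT and at 2.97 to 3.12 in Aif1-/- libraries.

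Profiles were then compared with those of the 12130 genes averaging 2 or more in log2 CPM, by the root mean square difference of centred log2 CPM over the 6 libraries. The nearest genes of Malat1 were Zfp945 (0.0575), Oas1h and Ms4a14, and those of Neat1 were Gm26792 (0.138), Gm16091 and Chrnb2. Rn7sk was followed by Tbc1d16 (0.0181), Gm13436 and Snx20, and Gm26917 by 2310022B05Rik (0.0623), Fmc1 and Hist1h2bj. Sssca1 (0.0352), Mex3d and Tmem120a were nearest to Rmrp, and Rtl8b (0.0294), Slc41a3 and Tesk1 to Rpph1. Gm11196 (0.0782), Gas5 (0.0901) and Gcnt7 were nearest to Snhg1, and Gm42748 (0.0403), Il18bp and Ift74 to Gas5. Most of the genes named here code for proteins. Between members, Rmrp and Rpph1 were closest (0.0630), then Gas5 and Snhg1 (0.0901), and Gm26917 and Malat1 were farthest apart (0.690).

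Some counts could not be given to a single gene. Rn7sk has 5 annotated copies at least 95% identical to it over at least 100 bases, of which Gm24447 matches it over 241 bases without a mismatch and Gm26315 over 238 bases at 99.6%. These copies held 16.8% to 21.3% of the reads of Rn7sk and the copies together, and a read was placed at 1 location only. The sum of the 6 rows came to 16964, 14356 and 21938 CPM in WT and to 18852, 19051 and 17929 CPM in Aif1-/- libraries, and the genotypes overlapped as for Rn7sk alone. The copies Gm24447 and Gm26315 were not members, and neither passed the test (log2 fold changes of 0.18 and 0.17, adjusted p = 0.299 and 0.261, edgeR). For Rpph1, 233 of 319 bases also lie in an exon of Ccnb1ip1 in the annotation used here, a gene with 3 reads in all, and for Rmrp 124 of 271 bases lie in Ccdc107, with 179 to 370 reads per library. The rows alike to Rpph1 over at least 100 bases held 69 reads against its 787324.

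The snoRNAs inside the host genes could not be followed. All 8 snoRNA rows inside Snhg1 and all 10 inside Gas5 were listed at 0 in every library, and each lies wholly within annotated exons of its host, which include retained introns. The same held for the 2 rows inside Malat1 and the 3 inside Neat1. These rows cover 20.95% of the exon bases of Snhg1 and 17.8% of those of Gas5. Across the genome, 108 of 124 single-exon rows inside an exon of a gene on the same strand with at least 10000 reads were at 0 in every library, and so were 36 of 38 on the opposite strand. The row Gm27702, which begins directly after the end of Neat1, had 2 reads in each of 2 Aif1-/- libraries and none elsewhere.

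The targeted gene and the cell type were checked against the labels. Aif1 had 220, 157 and 239 reads in WT and 4, 4 and 1 in Aif1-/- libraries (log2 fold change −5.71, adjusted p = 2.84e-06, edgeR). All 8 macrophage markers were tested, with 90718 to 136507 reads per library in sum, and 6 rose and 1 fell in Aif1-/- cells. The 4 granulocyte markers S100a9, Elane, Mpo and Ly6g were at 0 throughout, as were Cd3e of T cells and Dcn of fibroblasts. In sum the markers of granulocytes had 0 to 23 reads in a library, those of T cells 37 to 67, of B cells 3 to 17, of fibroblasts 0 to 19, of erythroid cells 55 to 115 and of dendritic cells 21 to 44. Of 3 tested markers of T, erythroid and dendritic cells none was called. Markers of megakaryocytes and platelets had 943 to 1242 reads in WT and 1563 to 2265 in Aif1-/- libraries, and 3 of 4 tested (Pf4, Ppbp and Treml1) rose. Itga2b, with 5 to 20 reads in a library, did not (log2 fold change −0.49, adjusted p = 0.606, edgeR). Gp9 was not tested and had 2 reads in Aif1-/- library 1 and none elsewhere. Most reads of the megakaryocyte and platelet markers were of Pf4, with 884 to 1154 in WT and 1298 to 1954 in Aif1-/- libraries. The part of these markers in the results was not tested.

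The genes that make or bind these RNAs, and their relatives, were listed by function, though with earlier results of these data known, and were tested in the fit over all genes. Of 17406 genes tested, 3231 (18.6%) were called in edgeR at an adjusted p under 0.05, 1399 (8.04%) higher and 1832 (10.5%) lower in Aif1-/- cells. Of 160 tested genes in 12 lists of partners and relatives, 9 were higher and 9 lower (11.25%), and their median log2 fold change was 0.08 against −0.0035 over all genes tested.

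Among paraspeckle proteins, the partners of Neat1, 1 of 14 tested rose and none fell, with a median of 0.10. It was Pspc1, from 41.4 ± 4.73 to 51.6 ± 1.61 CPM (log2 fold change 0.32 ± 0.09, adjusted p = 0.037). The essential partners Sfpq (0.16, adjusted p = 0.106) and Nono (−0.02, adjusted p = 0.851) did not pass. Of 15 nuclear speckle proteins, which meet Malat1, 2 rose, the splicing factors Srsf7 (0.22 ± 0.06, adjusted p = 0.0307) and U2af2 (0.22 ± 0.07, adjusted p = 0.0444). All 3 calls were lost in 4 of the 6 refits that left out a library, those without WT library 1 and without each Aif1-/- library, where adjusted p reached 0.146, 0.147 and 0.197.

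None of the 10 genes of the 7SK particle and P-TEFb passed. Larp7 and Mepce, which bind and cap 7SK, stood at log2 fold changes of 0.11 and 0.08, Hexim1, which 7SK brings to P-TEFb, at 0.17, and the cyclin T1 gene Ccnt1 at 0.14 (adjusted p = 0.482, 0.74, 0.447 and 0.266). Without WT library 3, 2 of the 10 were called higher and 1 lower. None of the 23 genes of RNA polymerase III and its promoter factors passed either, with values from −0.26 to 0.25 and a median of −0.03. Leaving out WT library 2 gave 3 lower calls among these, and leaving out WT library 3 gave 1 higher and 3 lower.

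The proteins of RNase P and RNase MRP, which hold Rpph1 and Rmrp, had 2 of 11 genes lower and none higher. Rpp25 had 32, 61 and 77 reads in WT and 3, 5 and 3 in Aif1-/- libraries. The genotypes were far apart, at 2.11 ± 0.703 and 0.188 ± 0.0871 CPM, with a log2 fold change of −3.52 ± 0.47 (adjusted p = 0.000403), and the call was kept in all 6 refits without a library. Rpp25l, its close relative, did not pass, with 178, 206 and 252 reads in WT and 209, 122 and 126 in Aif1-/- libraries (−0.14, adjusted p = 0.601). Rpp21 fell from 13.1 ± 1.3 to 9.53 ± 0.616 CPM (−0.46 ± 0.13, adjusted p = 0.0292), a call lost without WT library 1 and without each Aif1-/- library. The other 9 genes had values from −0.14 to 0.31.

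RNA polymerase I and its factors, which transcribe the pre-rRNA that RNase MRP helps to process, had 3 of 15 genes higher and none lower. Polr1a, the largest subunit, rose from 84.1 ± 2.99 to 105.9 ± 4.59 CPM (0.33 ± 0.07, adjusted p = 0.00602) and was called in all 6 refits without a library. The subunit genes Cd3eap (0.43 ± 0.11, adjusted p = 0.0214) and Znrd1 (0.45 ± 0.14, adjusted p = 0.045) kept their calls in 3 and 1 of these. Rows of ribosomal RNA, or like it, formed a separate list. Among them mt-Rnr1 and mt-Rnr2 are annotated as mitochondrial rRNA and Gm24187 as a miRNA. The libraries were depleted of ribosomal RNA, and the part of depletion in these counts was not tested. The 4 tested, Gm15564, Gm24187, mt-Rnr1 and mt-Rnr2, all fell, at log2 fold changes of −4.39, −2.51, −2.35 and −0.98 (adjusted p = 0.0226, 0.0276, 0.00695 and 0.0211).

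WT library 3 carried much of that fall. Gm15564 had 38, 76 and 882 reads in WT and 11, 9 and 15 in Aif1-/- libraries, and mt-Rnr1 had 337, 928 and 2123 in WT and 250, 111 and 152 in Aif1-/- libraries. Without WT library 3 the same 4 rows came to −1.93, −1.04, −1.56 and −0.59 and were still called (adjusted p = 0.00202, 0.00251, 0.000929 and 0.0077). The calls of Gm15564, Gm24187 and mt-Rnr2 were lost in at least 2 of the refits without an Aif1-/- library. The row CT010467.1, an rRNA on the minus strand next to Gm26917, had 102, 2602 and 15887 reads in WT and 72, 79 and 161 in Aif1-/- libraries. It was called lower (−5.42 ± 1.33, adjusted p = 0.0166) although WT library 1 lay within the range of the Aif1-/- libraries, and without WT library 3 it came to −3.25 (adjusted p = 0.0105). Its call was lost without Aif1-/- library 1 or 2, where adjusted p reached 0.0731. Gm42418 and AY036118, which overlap it, were listed at 0 throughout.

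For Snhg1 and Gas5 the lists were the snoRNP proteins, decay factors and other host genes. Of 15 snoRNP genes, Dkc1, the pseudouridine synthase of H/ACA particles, rose (0.33 ± 0.10, adjusted p = 0.0454) and Znhit3, an assembly factor of box C/D particles, fell (−0.75 ± 0.16, adjusted p = 0.00683), the latter in all 6 refits without a library and the former in 2. None of the 10 decay factors passed, with Upf1 at 0.07 and Smg6 at 0.21 (adjusted p = 0.636 and 0.136). Of 13 other host genes, of snoRNAs or in the case of Mir17hg of miRNAs, 2 fell and none rose. Snhg11 had 89, 139 and 88 reads in WT and 1, 0 and 1 in Aif1-/- libraries, a CPM ratio of 124 with a 95% counting interval of 34.1 to 1031 (adjusted p = 6.56e-06). Zfas1 fell by 0.55 ± 0.13 on the log2 scale (adjusted p = 0.0146) and lost its call without Aif1-/- library 2 or 3. Snhg5, Snhg8 and Snhg12 had values of 0.19, 0.07 and 0.10 and did not pass.

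**Figure D4:**
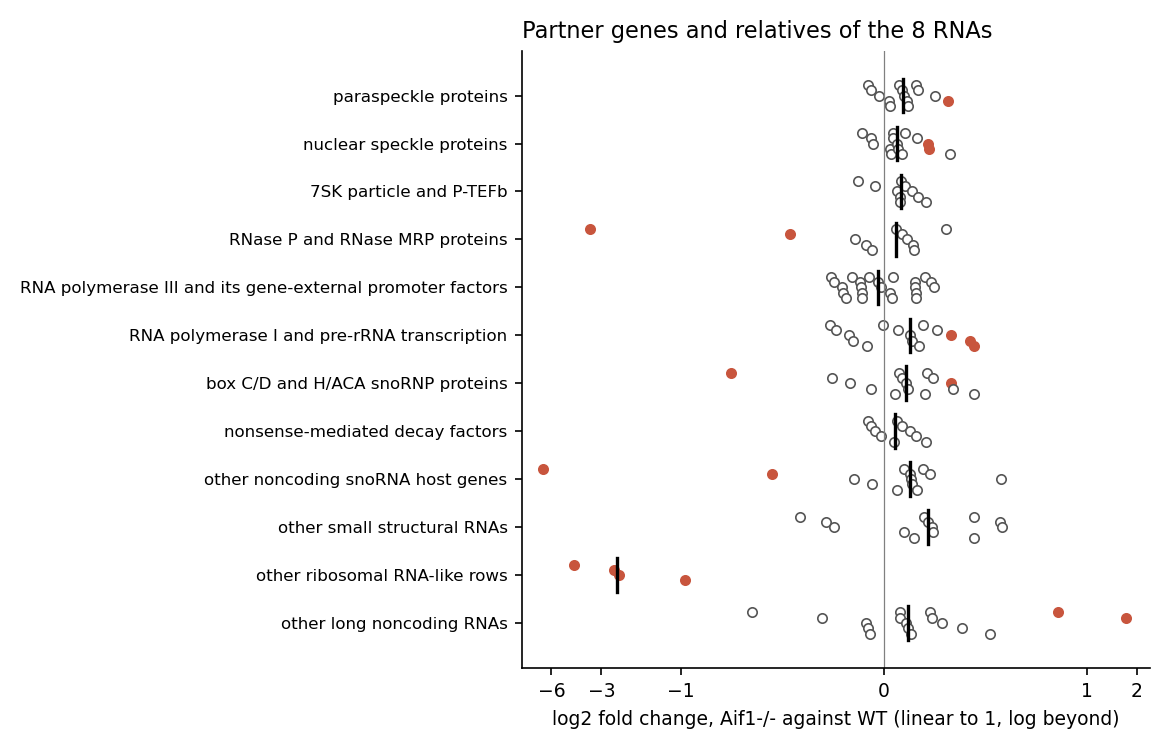
Log2 fold change (Aif1-/- against WT; linear between −1 and 1, log beyond) of each tested gene of the 12 lists; filled points passed edgeR at an adjusted p under 0.05, open points did not, and black lines are medians. Calls are few outside the rRNA rows, where all 4 points are filled.

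Of 13 other small structural RNAs tested none passed, with a median of 0.22. The 7SL RNA rows Rn7s1 and Rn7s2 stood at 0.22 and 0.24 (adjusted p = 0.574 and 0.546), the telomerase RNA Terc at 0.57 (adjusted p = 0.22) and the U2 row Rnu2-10 at 0.45 (adjusted p = 0.382). Rn7s1 spread widely within each genotype, with 307.6 ± 82.8 CPM in WT and 358.2 ± 93.4 CPM in Aif1-/- libraries. Among 17 other long noncoding RNAs, Ftx rose from 2.27 ± 0.337 to 7.50 ± 0.454 CPM (1.73 ± 0.18, adjusted p = 7.48e-05) and Pvt1 from 8.87 ± 2.42 to 16.1 ± 1.41 CPM (0.86 ± 0.18, adjusted p = 0.00703), both in all 6 refits without a library, and none fell. Kcnq1ot1 and Tug1 did not pass (0.14 and −0.08).

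By annotated class and without the 8 members, 57 of 1515 long noncoding genes were higher (3.76%) and 66 lower (4.36%), and their median log2 CPM was 0.558 against 4.92 for protein-coding genes, of which 10.1% were higher and 13.7% lower. The most firmly called were 2610203C22Rik (534, 716 and 456 reads in WT and 14, 9 and 7 in Aif1-/- libraries), G530011O06Rik (log2 fold change −2.28), 8030453O22Rik (6, 9 and 3 reads in WT and 250, 171 and 138 in Aif1-/- libraries) and Gm26520 (6.58). Each of these fold changes was larger than that of any of the 8 members. Of 97 snoRNA and scaRNA rows 6 rose (6.19%, beside 8.04% of all genes tested) and none fell. Their median log2 fold change was 0.31, at a low median log2 CPM of −0.44. The calls were led by Gm23455 (169, 254 and 275 reads in WT and 417, 302 and 322 in Aif1-/- libraries, 0.95 ± 0.14, adjusted p = 0.000803), Snora78 (2.24), Gm26448 (0.92) and Gm22579 (0.79). Of 84 snRNA rows, Gm22107 rose (1.84) and Gm25579 fell (−2.30). Of 114 rows in the class of other small RNA, which also holds rRNA rows, 6 fell (5.26%, beside 10.5% of all genes tested) and none rose. Among the 6 were CT010467.1 and both mitochondrial rRNAs, and each of the 6 had its most reads in WT library 3.

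Of 50 tested genes within 100 kb of a member, 3 were higher and 5 lower in Aif1-/- cells, 16% in all beside the 18.6% over all genes. Near Malat1 and Neat1, Ltbp3, a binding protein of latent TGF-β, rose (347, 513 and 696 reads in WT, 953, 681 and 753 in Aif1-/- libraries, 0.99 ± 0.16, adjusted p = 0.00174) and Pola2, a subunit of DNA polymerase α, fell (−0.48 ± 0.08, adjusted p = 0.00237). Frmd8 (−0.35, adjusted p = 0.074) did not pass. Near Rmrp, the receptor gene Cd72, 38160 bases away, rose from 1144, 1414 and 1452 to 3497, 2322 and 2276 reads (1.36 ± 0.06, adjusted p = 3.03e-07) and Creb3 fell (−0.30, adjusted p = 0.028), while the overlapping Ccdc107 (0.01, adjusted p = 0.988) and Arhgef39 (0.35, adjusted p = 0.0657) did not pass. Near Snhg1, Stx5a (−0.28, adjusted p = 0.0237) and Ttc9c (−0.27, adjusted p = 0.0142) fell and Hnrnpul2 rose (0.22, adjusted p = 0.036), whereas Slc3a2, which starts 106 bases from it on the other strand, stood at −0.03 (adjusted p = 0.834). No neighbour of Rn7sk, Rpph1 or Gas5 passed, among them Ick (−0.39, adjusted p = 0.0699), Parp2, 74 bases from Rpph1 (−0.09, adjusted p = 0.62), and Zbtb37, which overlaps Gas5 (−0.16, adjusted p = 0.481). The calls of Ltbp3, Pola2 and Cd72 were kept in all 6 refits without a library, those of Stx5a and Ttc9c in 3 and those of Creb3 and Hnrnpul2 in 2. Stx5a also lost its call without a filter on low counts, and Hnrnpul2 with plain library totals.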

How the data were processed

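RNA-seq was performed on 3 WT and 3 Aif1-/- libraries of immortalized BMMs. The authors used Trim Galore 0.5 for trimming, TopHat2 2.0.13 for alignment to GRCm38 with no more than 1 place per read, and HTSeq 0.6.1p1 for counting over Ensembl genes, as the submitters' notes and the methods state. The deposited values are raw read counts for 47729 genes, with 5 summary rows left out of all library sizes and tests. The largest of these, reads matched to no gene, held 25.5% to 40.4% of counted reads. Reads assigned to genes were 17707986 to 29314253 per library. ERCC spike-ins were not used here. The library kit keeps strand, and HTSeq was run with its defaults, which count by strand. Whether the deposited counts follow strand was not settled, since most rows within strongly counted exons were at 0 on either strand.

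The counts were analyzed with edgeR 4.0.16 in R 4.3.3 (limma 3.58.1), with TMM scaling, its default filter by expression (17406 genes kept), the quasi-likelihood test on genotype and Benjamini-Hochberg adjustment over all genes kept. The SE was taken as |log2 fold change|/√F. CPM are counts per 1000000 reads of the TMM-scaled library, and a prior count of 2 was added for log2 CPM. Symbols, positions and lengths came from GENCODE M21 (GRCm38), which matched 47310 genes. Near copies were found with blastn. The script was tested on simulated data.

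The members and gene lists were chosen with earlier results of these data known. The text names all members, up to 4 genes per list or class with the smallest adjusted p, the nearest neighbors and those called within 100 kb, the 3 genes nearest to each profile, and Aif1. Rpp25l, Snhg5, Snhg8, Snhg12, Nono, Mepce, Upf1, Rn7s1, Rn7s2, Kcnq1ot1, Tug1, Actb, the near copies and the marker genes were named after their values were seen. A few genes that this rule covers are not reported here. The alternatives were DESeq2 1.42.0, other scalings and filters, the replicate number as a block, and each library left out.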

Additional observations from a re-analysis of the deposited data

How the results depend on the processing

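Each result was recomputed under 8 alternatives that kept all 6 libraries and under 6 that each left out 1 library. With all libraries kept, the counts over all genes, the 12 lists together, the noncoding classes and the neighbors stayed within 1.5 times, except for genes called higher in the lists, which went from 9 to 5 with the replicate block. Single lists of few calls moved further. Higher calls went from 1 to 0 among paraspeckle proteins (upper-quartile factors, plain totals or the block), from 2 to 0 among nuclear speckle proteins (no filter or the block), and from 1 to 0 (totals without the 8 RNAs) or 2 (no filter or DESeq2) among snoRNP proteins, and lower calls from 2 to 1 among RNase P and MRP proteins (stricter filter or the block). The replicate numbers did not pair the libraries (correlations of same-numbered deviations of 0.06, −0.08 and −0.09), and with the block 1267 genes were higher and 1605 lower over all genes. Without a single library the counts ran from 874 to 2404 higher and 1166 to 2485 lower over all genes, from 3 to 19 higher and 4 to 15 lower in the lists, from 35 to 150 higher and 36 to 160 lower in the noncoding classes (64 and 73 with all libraries), and from 2 to 5 higher and 1 to 10 lower among neighbors. The lowest counts over all genes came without Aif1-/- library 1 and the highest without WT library 3. Of the 26 called list genes and neighbors, 10 were called under every alternative that tested them, and none changed sign.

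The share held by the 8 RNAs was 3.70% in WT and 3.28% in Aif1-/- libraries over all counted reads, and 3.23% and 2.74% of gene reads without Gm26917. It ran from 5.30% to 6.32% in WT and from 5.36% to 5.58% in Aif1-/- cells when a library was left out. Among the members, with all libraries kept, the log2 fold change of Gm26917 ran from −0.05 to 0.03. When a library was left out, it ran from −0.23 to 0.36. That of Rn7sk then ran from −0.09 to 0.255 and that of Malat1 from −0.95 to −0.47. Those of the other members stayed negative throughout. For every member but Neat1 the farthest move came without WT library 2 or 3, and for Neat1 without Aif1-/- library 3. The sources name no batch of the libraries. Depth limits Snhg1 and Gas5, with at most 393 and 879 reads in a library, and not the other 6.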
